A study of Mus musculus with 4 samples.

Results

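The core circadian clock genes were examined in the gastrocnemius muscle of mice. The members were fixed by symbol, and 10 of the 23282 gene rows carried them, namely Arntl, Clock, Per1, Per2, Per3, Cry1, Cry2, Nr1d1, Nr1d2 and Dbp. Each member had 1 row and had reads in all 4 libraries. Expression had been measured by QuantSeq, a 3′ mRNA sequencing method that reads the end of polyadenylated transcripts. The animals were CDF1 male mice, and the labels give their age as postnatal day 28, which is the age at purchase in the methods. The factors were exercise (E), high-intensity treadmill running on alternate days in the morning, and tumor (T), raised with CT26 murine colorectal cancer cells put into the tail vein. The groups were normal control, E(−)T(−), with neither, normal exercise, E(+)T(−), with running alone, cancer control, E(−)T(+), with tumor cells alone, and cancer exercise, E(+)T(+), with both.

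Each group had 1 library, so no difference below has a replicate check and no p-value is given. The labels speak of 10 mice per group, whereas the text of the study describes a representative mouse of each group, and it was not settled if a library stands for 1 animal or for several. The hour at which each muscle was taken, and the time since the last run, are not given in the sources used here. Clock transcripts cycle over the day, so in a single library per group a change in the height of the rhythm and a shift of its phase cannot be told apart. In a bulk tissue, fewer cells of a type and less RNA per cell cannot be told apart either.

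The clock is a feedback loop of transcription. ARNTL (also called BMAL1) and CLOCK form a dimer that binds E-boxes and switches on the Per, Cry, Nr1d1, Nr1d2 and Dbp genes, and the PER and CRY proteins return to block the dimer. A further loop runs through the nuclear receptors REV-ERBα and REV-ERBβ, the products of Nr1d1 and Nr1d2, which repress Arntl through response elements that the ROR receptors use to activate it. DBP is an output factor that binds D-boxes, and in skeletal muscle the clock is known for timing the use of glucose and lipids.

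To look for letters of these elements, promoter windows were taken from RefSeq (GRCm38), each from 250 bases before to 50 bases after an annotated start, and 9 of the 10 members matched. Per2 had no entry, and for genes with several annotated starts the most upstream window was used. The windows below are of the activator Arntl and of 4 repressor genes, Per1, Cry2 and Nr1d1, which spanned the widest range of levels, and Per3, which had the other called rise with exercise in healthy mice. Capitals mark the motifs searched on both strands, which did not overlap in these windows. They were the E-box CACGTG, the E-prime box CACGTT, which reads AACGTG on the other strand, and the D-box TTANGTAA. The last was TNGGTCA, which reads TGACCNA on the other strand, a loose pattern for the REV-ERB/ROR element. It allows any base at N, so a match need not be the element itself.
Arntl, chr7:113207215-113207514, plus strand: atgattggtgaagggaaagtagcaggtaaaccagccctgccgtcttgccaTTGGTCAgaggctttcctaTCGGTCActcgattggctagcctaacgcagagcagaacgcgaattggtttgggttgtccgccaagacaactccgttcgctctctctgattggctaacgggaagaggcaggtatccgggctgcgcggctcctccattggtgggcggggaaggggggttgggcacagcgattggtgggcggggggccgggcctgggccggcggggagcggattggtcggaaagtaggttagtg
Per1, chr11:69098699-69098998, plus strand: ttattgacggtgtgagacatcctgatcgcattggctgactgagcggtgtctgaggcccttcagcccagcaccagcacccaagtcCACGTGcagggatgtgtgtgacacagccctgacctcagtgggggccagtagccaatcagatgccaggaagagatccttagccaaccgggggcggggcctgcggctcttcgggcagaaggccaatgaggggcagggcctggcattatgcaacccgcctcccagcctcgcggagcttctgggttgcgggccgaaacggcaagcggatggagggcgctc
Per3, chr4:151044616-151044915, minus strand: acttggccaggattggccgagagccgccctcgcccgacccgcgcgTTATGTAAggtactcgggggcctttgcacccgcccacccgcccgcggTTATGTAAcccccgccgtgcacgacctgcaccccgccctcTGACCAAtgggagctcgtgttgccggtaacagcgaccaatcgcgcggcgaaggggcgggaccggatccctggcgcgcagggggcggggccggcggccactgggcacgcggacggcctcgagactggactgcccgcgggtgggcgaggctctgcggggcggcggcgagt
Cry2, chr2:92434020-92434319, minus strand: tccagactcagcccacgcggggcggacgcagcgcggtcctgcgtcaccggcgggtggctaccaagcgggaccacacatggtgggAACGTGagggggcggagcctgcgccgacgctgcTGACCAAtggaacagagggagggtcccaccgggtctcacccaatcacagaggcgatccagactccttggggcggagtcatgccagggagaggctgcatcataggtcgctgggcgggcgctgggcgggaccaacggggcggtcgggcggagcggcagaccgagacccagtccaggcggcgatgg
Nr1d1, chr11:98775328-98775627, minus strand: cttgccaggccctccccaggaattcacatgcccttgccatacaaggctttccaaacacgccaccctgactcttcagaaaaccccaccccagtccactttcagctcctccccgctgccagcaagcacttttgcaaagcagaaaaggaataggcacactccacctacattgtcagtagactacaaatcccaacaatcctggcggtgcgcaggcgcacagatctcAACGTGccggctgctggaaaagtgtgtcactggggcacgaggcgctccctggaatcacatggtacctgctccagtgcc

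The Arntl window held a pair of matches to the REV-ERB/ROR pattern, TTGGTCA at −200 and TCGGTCA at −181 from the start, counted to the first base of the match. Per1 had an E-box at −166. Per3 had D-boxes at −205 and −158 and a match to the REV-ERB/ROR pattern at −118. Cry2 had an E-prime box at −166 and a match to the REV-ERB/ROR pattern at −133, and Nr1d1 had an E-prime box at −28. Of the windows not printed, that of Cry1 had an E-box at −60 and an E-prime box at −79, and those of Clock, Nr1d2 and Dbp held none of these letters. A further Arntl window, of a more downstream start, also held TAGGTCA at 30 bases after that start. Among 32851 promoter windows of the same length, 7.15% held the E-box, 4.68% the E-prime box, 2.32% the D-box and 11% the REV-ERB/ROR pattern. The cAMP response element TGACGTCA, found in 1.79% of the windows, was in none of the members' windows, which says only that these letters are not there. A match of letters is a description and not a binding site.

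Read totals were 11269826 for normal control and 13226105 for normal exercise, and 10647448 for cancer control and 11026538 for cancer exercise. Levels are normalized read counts, taken back from the deposited log2 values, and are compared between libraries and not between genes. The muscle label was checked on 8 muscle fibre genes such as Ckm and Acta1, none of which was at 0 in any library. Their summed level was 1120591 and 865757 in the healthy libraries (normal control, then normal exercise) and 627696 and 679691 in the tumor libraries (cancer control, then cancer exercise). With the tumor alone single fibre genes moved both ways. Pvalb was 18.2-fold, Acta1 2.58-fold and Actn3 2.55-fold lower, and Myh1 was 2.47-fold higher. The other cell types in the tissue also differed between libraries. The 4 red cell markers summed to 227817, 48314, 217123 and 458686 in the same order, with Slc4a1 at 0 in cancer control. The 5 fibroblast markers, none at 0, summed to between 36120 and 72828, most of it from Dcn. With the tumor alone all 5 were lower and 3 of them by at least 2-fold, Col1a1 77.8-fold, Lum 16.6-fold and Dpt 14.1-fold. The list's median log2 fold change was −3.82. The 4 adipocyte markers summed to between 800 and 3635, with Lep at 0 in both tumor libraries, and all 4 fell with the tumor alone (median −3.54). The 4 endothelial markers summed to between 2250 and 2935 and the 4 macrophage markers to between 1562 and 2107, with none at 0 in either list. With the tumor in exercised mice 3 endothelial markers were lower, Kdr by 2.83-fold, and 1 was higher. Within the macrophage list Cd68 differed from the rest, at 92.6 and 94.7 in the healthy libraries and 1024 and 319 in the tumor libraries. Cd68 rose 11-fold with the tumor alone and fell 3.20-fold with exercise in tumor-bearing mice, the directions of Per1, Cry2 and Nr1d1 in these comparisons. Csf1r and Mrc1 went the other way, at 849 and 549 in normal control, 526 and 489 in cancer control, and 786 and 588 in cancer exercise. Adgre1 was at 71.3, 67.5 and 62.8 in these libraries. The 3 neutrophil markers with a row summed to 68.2 and 146 in the healthy libraries and to 2515 and 1669 in the tumor libraries, with Camp at 0 in normal exercise. The part of these cell types in the clock gene values was not tested.

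Per1, Cry2 and Nr1d1 had the widest spread of the 10 members, and all of them were highest in cancer control and lowest in normal control. From the lowest to the highest library, Per1 spanned 15.3-fold, Cry2 11.9-fold and Nr1d1 8.86-fold. Dbp spanned 3.39-fold, Arntl 2.44-fold and Per3 2.39-fold, and the remaining 4 members between 1.47-fold and 1.73-fold. Cancer control was the highest library for 7 members, the exceptions being Clock, which was highest in normal control, and Per3 and Dbp, which were highest in normal exercise. The share of all genes highest in cancer control was not computed, so this count has no background. With the tumor alone 20.9% of all genes rose at least 2-fold.

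**Figure D1:**
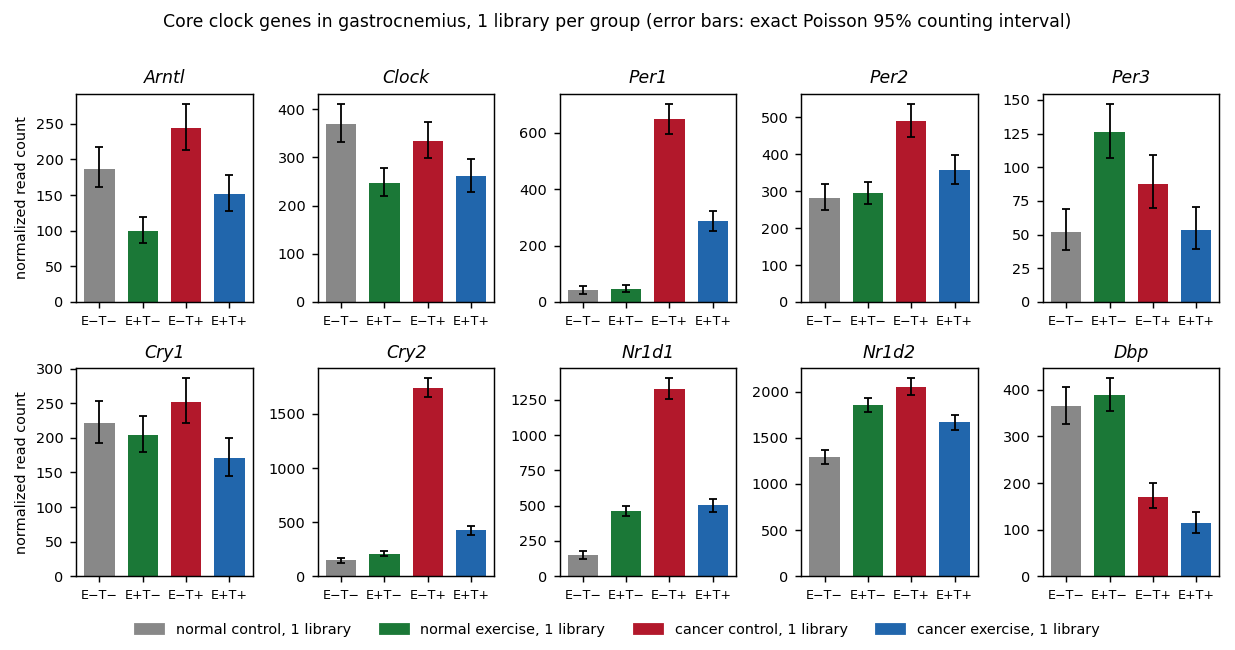
Normalized read count of each core clock gene (y axes, linear and starting at 0) in the 4 libraries (x axes), with error bars for the exact Poisson 95% counting interval of 1 library. Per1, Cry2 and Nr1d1 stand highest in cancer control at 649, 1743 and 1327, and Dbp is lower in both tumor libraries than in both healthy ones.

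Arntl, the activator gene on which the loop depends, had a level of 187 in normal control and 99.6 in normal exercise, against 244 with the tumor alone and 151 in cancer exercise. It was lower with exercise on either background, and the counting intervals of normal control and cancer exercise overlapped. Those of normal control (161 to 217) and cancer control (213 to 278) overlapped narrowly. Clock, its partner, had 370, 247, 334 and 261 in the same order. The libraries without exercise had overlapping intervals for Clock, as did those with exercise, and the latter were lower.

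Per1, the period gene known as a rapidly induced one, had a level of 41.5 in normal control and 45.2 in normal exercise, against 649 with the tumor alone and 286 in cancer exercise. Both tumor libraries lay far above both healthy ones, whose intervals overlapped. Per2 had 282, 294, 489 and 357, the same order of libraries over a narrower range. Per3 had 52.2, 126, 87.8 and 53.1, so that normal exercise was its highest library while normal control and cancer exercise had overlapping intervals. The interval of cancer control (69.8 to 109) also narrowly overlapped those of normal exercise (107 to 147) and cancer exercise (39.3 to 70.2). The period genes thus did not share a single profile.

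Cry1, which encodes the cryptochrome that holds the dimer in repression late in the cycle, had 221, 204, 252 and 171, and each library's interval overlapped that of its neighbour in order. Cry2, the other cryptochrome gene, stood at 146 in normal control and 209 in normal exercise, against 1743 with the tumor alone and 424 in cancer exercise. No neighbouring libraries of Cry2 had overlapping intervals.

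Nr1d1, the gene of REV-ERBα, stood at 149 in normal control and 461 in normal exercise, against 1327 with the tumor alone and 503 in cancer exercise, with overlapping intervals in the exercise libraries. Nr1d2 had 1290, 1851, 2050 and 1665, and none of its neighbours in order overlapped. Dbp had 365, 388, 171 and 114, and among the members it alone had both tumor libraries below both healthy ones. The healthy libraries had overlapping intervals for Dbp.

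**Figure D2:**
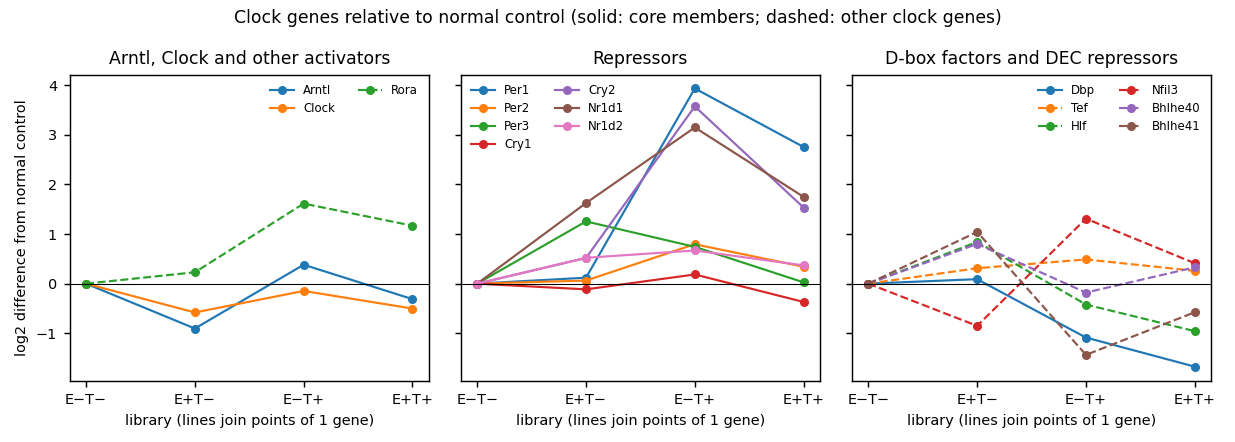
Difference of each gene's log2 value from that in normal control (y axis) in the 4 libraries (x axis), by role in the clock, with solid lines for core clock genes and dashed lines for 6 other clock genes. Lines join libraries to make each gene's profile readable and mark no order in time. Per1, Cry2 and Nr1d1 peak in cancer control, Arntl and Clock are lower in each exercise library than in the library without exercise on the same background, and Dbp is lower in both tumor libraries.

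To ask what running did in healthy muscle, normal exercise was set against normal control. Nr1d1 was 3.08-fold higher with exercise and Per3 2.39-fold higher, and no member fell by 2-fold. Nr1d1 went from 149 to 461, a log2 fold change of 1.62 with a 95% counting interval of 1.36 to 1.91. Per3 went from 52.2 to 126, a log2 fold change of 1.25 (interval 0.80 to 1.76). Arntl was 1.87-fold lower (log2 −0.90, interval −1.25 to −0.57), and Clock was lower by less (log2 −0.58, interval −0.81 to −0.36). Neither reached 2-fold. Nr1d2 and Cry2 each had a log2 fold change of 0.52, with intervals clear of 0.

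A gene was called changed when it differed at least 2-fold and reached a level of 4 or more in 1 or both of the libraries. By this rule 2 of the 10 members rose and 0 fell, against 21.5% of all 14518 genes that met the minimum, 9.44% higher and 12.1% lower. The called share of the members was therefore near that of all genes. At any size, 7 members were higher and 3 lower, beside 49.2% and 50.7% of all genes. Their median log2 fold change was 0.10, beside −0.01 for all genes, and 0.27 under total count scaling. The counting interval was clear of 0 for 6 members, beside 56.9% of all genes. Per1, Per2, Cry1 and Dbp had log2 fold changes between −0.12 and 0.12 with intervals that included 0.

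To ask what the tumor alone did, cancer control was set against normal control. Per1, Cry2 and Nr1d1 rose and Dbp fell. Per1 was 15.3-fold higher, a log2 fold change of 3.93 (interval 3.50 to 4.47), and 1.99% of all genes rose as much or more. Cry2 was 11.9-fold higher (log2 3.57, interval 3.33 to 3.84), a size that 2.64% of all genes reached. Nr1d1 was 8.86-fold higher (log2 3.15, interval 2.90 to 3.42), as 4.06% of all genes were. Dbp was 2.12-fold lower (log2 −1.09, interval −1.37 to −0.82), although it is driven by the same dimer as Per1 and Nr1d1 in the textbook loop.

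In this comparison 3 of 10 members rose and 1 fell, while 45.1% of 14818 genes were called, 20.9% higher and 24.2% lower. Changes of 2-fold were thus common among all genes, and the share of members called was no larger. At any size, 8 members were higher and 2 lower, beside 48.6% and 51.4% of all genes. The members' median was 0.70, beside −0.04 for all genes, and 8 of the 10 counting intervals were clear of 0, beside 71.5% of all genes. Per2 (log2 0.79), Per3 (0.74), Nr1d2 (0.67) and Arntl (0.38) were higher by less than 2-fold. For Clock (−0.15) and Cry1 (0.18) the counting intervals included 0.

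To ask what running did in tumor-bearing mice, cancer exercise was set against cancer control. All 10 members were lower with exercise, with all 10 counting intervals clear of 0, and 3 of them fell by at least 2-fold. Cry2 fell 4.11-fold, from 1743 to 424 (log2 −2.04, interval −2.20 to −1.88). Nr1d1 fell 2.64-fold, from 1327 to 503 (log2 −1.40, interval −1.56 to −1.25), and Per1 fell 2.27-fold, from 649 to 286 (log2 −1.18, interval −1.40 to −0.97). These were the 3 members that rose with the tumor alone, and both comparisons use the cancer control library, so a high value in it enters both. The other 7 members had log2 fold changes between −0.71 for Per3 and −0.30 for Nr1d2.

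No member was called higher and 3 of 10 were called lower, against 30.6% of 14491 genes, 15.6% higher and 15.1% lower. The called share again lay near that of all genes. At any size, 50.2% of all genes were higher and 49.7% lower, and 63.5% had a counting interval clear of 0. The members' median was −0.64 beside 0.01 for all genes. Their sign did not depend on scaling, as all 10 were lower under each of the other scalings tried.

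To ask what the tumor did in mice that ran, cancer exercise was set against normal exercise. Per1 was 6.20-fold higher (log2 2.63, interval 2.23 to 3.10) and Cry2 2.02-fold higher (log2 1.02, interval 0.79 to 1.25), close to the threshold. Under total count scaling Cry2 was below 2-fold, at log2 0.86. Dbp was 3.39-fold lower (log2 −1.76, interval −2.09 to −1.46) and Per3 2.34-fold lower (log2 −1.23, interval −1.74 to −0.77). Nr1d1, at 503 against 461, had a log2 fold change of 0.12 whose interval, −0.06 to 0.30, included 0.

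By the rule, 2 of 10 members rose and 2 fell, beside 30.3% of 14470 genes, 13.9% higher and 16.3% lower. At any size, 6 members were higher and 4 lower, beside 48.5% and 51.5% of all genes. The members' median was 0.10, beside −0.03 for all genes, and became −0.05 under total count scaling, and 7 counting intervals were clear of 0, beside 64.2% of all genes. Arntl was 1.51-fold higher (log2 0.59, interval 0.23 to 0.96).

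**Figure D3:**
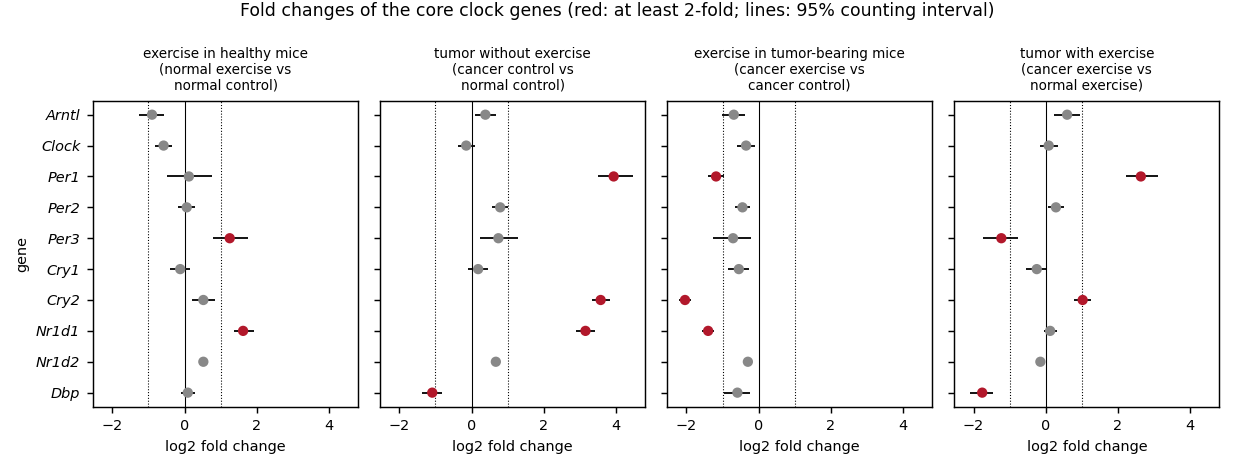
Log2 fold change (x axes) of each core clock gene (y axis) in the 4 comparisons, with lines for the 95% counting interval of the 2 libraries compared and red points for genes at least 2-fold apart. In tumor-bearing mice all 10 points lie left of 0, whereas in healthy mice Nr1d1 and Per3 lie right of the 2-fold line and Arntl left of 0.

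The effect of exercise was set side by side on the 2 backgrounds, which share no library. For Nr1d1 the log2 fold change was 1.62 in healthy mice and −1.40 in tumor-bearing mice, a difference of −3.02 (counting interval −3.33 to −2.72). For Cry2 it was 0.52 and −2.04, and for Per3 1.25 and −0.71. Nr1d2 also had opposite signs, 0.52 and −0.30. Arntl was lower with exercise on both backgrounds, by similar amounts (−0.90 and −0.69, difference 0.21, interval −0.24 to 0.66), as was Clock (−0.58 and −0.35, difference 0.23, interval −0.10 to 0.55). These intervals cover counting error and say nothing of how far mice differ.

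**Figure D4:**
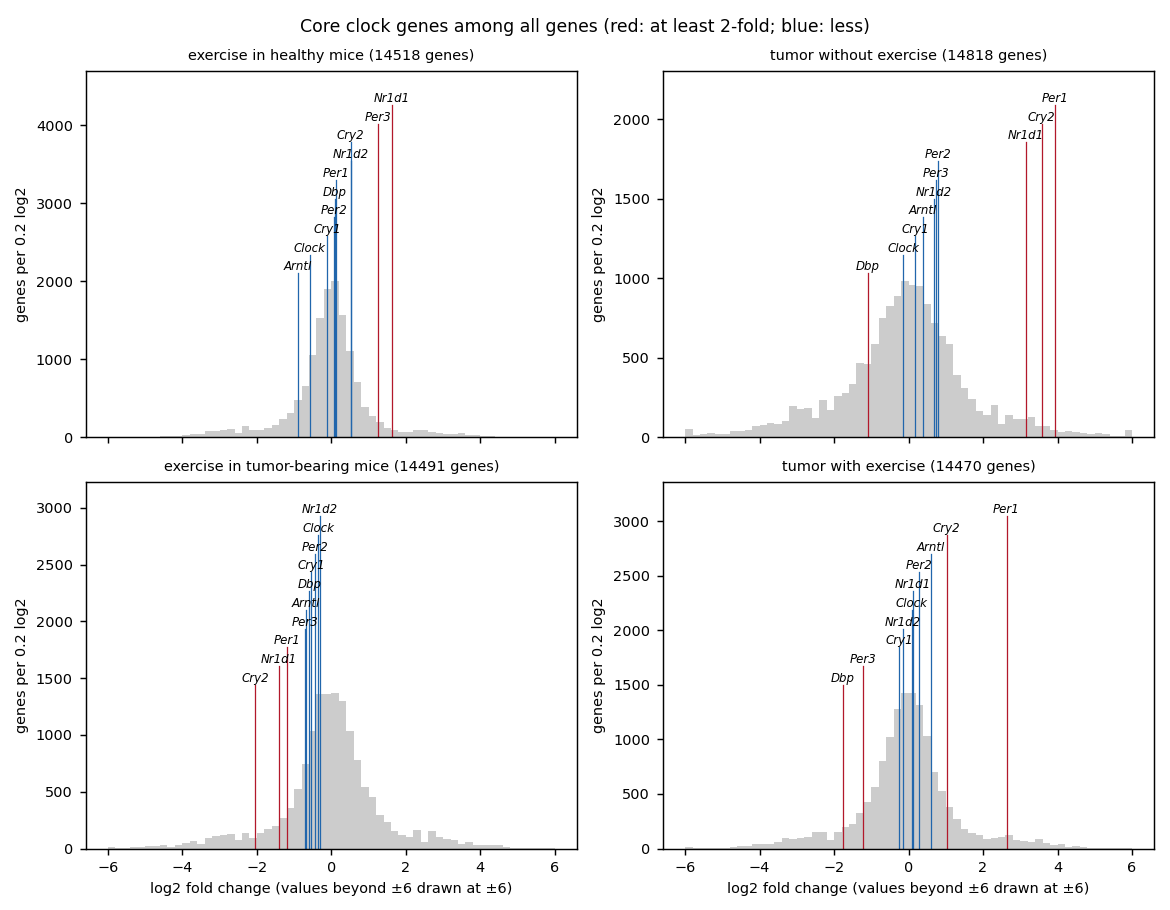
Histograms of the log2 fold change of all genes that met the minimum (x axes in log2, y axes in genes per bin of 0.2 log2) for the 4 comparisons, with a line at each core clock gene, red where it was at least 2-fold apart. Line heights only separate the names. With the tumor alone Per1, Cry2 and Nr1d1 lie in the right tail, and with exercise in tumor-bearing mice all 10 lines lie left of 0.

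The 3′ ends of the members bear on how their reads can be read. In GENCODE M21 (GRCm38), Nr1d1 lies at chr11:98767932-98775333 on the minus strand, and Thra, the gene of a thyroid hormone receptor, overlaps 263 of the 488 bases of its last exon from the other strand. Dbp lies at chr7:45705088-45710203 on the plus strand, and Sphk2, a sphingosine kinase gene, overlaps all 539 bases of its last exon. How the counting treated strand is not given in the sources used here. Thra had 397 and 509 reads in the healthy libraries and 323 and 252 in the tumor libraries, where Nr1d1 had 140 and 569, then 1239 and 464, again with the control library of each pair first. Nr1d1 had more reads than Thra in every library but normal control. The log2 fold change of Thra with the tumor alone was −0.29, beside 3.15 for Nr1d1. Sphk2 had 557, 734, 488 and 383 reads, and its log2 fold change was −0.18 with the tumor alone and −0.52 with the tumor in exercised mice, beside −1.09 and −1.76 for Dbp. Whether reads were shared between these neighbours cannot be told from the deposited values. No gene overlapped the last exon of the other 8 members.

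Other genes of the clock were taken from a list of 19, of which 18 met the minimum in some comparison and Fbxl21 had no reads in any library. The shares of all genes called, 21.5%, 45.1%, 30.6% and 30.3% in the 4 comparisons, are the background of these counts. With exercise in healthy mice 4 rose (Npas2, Rorb, Bhlhe41 and Ciart) and Arntl2 fell, 5 of 18, though for Arntl2 and Rorb the counting interval included 0. With the tumor alone 6 rose (Npas2, Rora, Rorb, Nfil3, Ciart and Nampt) and Bhlhe41 fell, 7 of 18, a share no larger than that of all genes. With exercise in tumor-bearing mice Arntl2 rose, while Ciart and Wee1 fell, 3 of 18. With the tumor in exercised mice 4 rose (Npas2, Arntl2, Nfil3 and Ciart) and 4 fell (Hlf, Bhlhe41, Btrc and Wee1), 8 of 18. Their median log2 fold changes were 0.41, 0.64, −0.28 and 0.19, against the medians of all genes given above. Ciart had no reads in normal control, and at its lower bound it still lay above the middle of the list. Its exact value therefore did not bear on these medians.

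Among the activators, Npas2, a substitute for Clock, had only 1 read in normal control and 14 in normal exercise, against 25 with the tumor alone and 42 in cancer exercise. The log2 fold change of Npas2 was 3.72 with the tumor alone (interval 2.04 to 10.01) and 1.92 with the tumor in exercised mice (interval 1.10 to 2.99). Healthy exercise gave 2.53, with an interval of 0.70 to 8.82 that shows how little 1 read can fix. Arntl2, the paralog of Arntl, had 6, 3, 4 and 16 reads, and with the tumor in exercised mice its log2 fold change was 2.46 (interval 1.03 to 5.25). For exercise in tumor-bearing mice it was 1.78 (interval 0.38 to 4.06).

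Rora and Rorb encode receptors that compete with the REV-ERB proteins. Rora stood at 1377 in normal control and 1614 in normal exercise, against 4213 with the tumor alone and 3095 in cancer exercise. With the tumor alone this was a log2 fold change of 1.61. Rorb, for which 5 reads were found in normal control and 21 with the tumor alone, had a log2 fold change of 1.88 (interval 0.63 to 3.84). Both thus rose with the tumor alone, in the same comparison in which Nr1d1 rose.

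Nfil3, which encodes the repressor at D-boxes, had 608, 337, 1509 and 809 in the same order of libraries. It rose with the tumor alone (log2 1.31) and in exercised mice (log2 1.26), the comparisons in which Dbp fell. The exercise comparisons did not show opposite directions. In tumor-bearing mice both were lower with exercise, Nfil3 at log2 −0.90 and Dbp at −0.59. In healthy mice Nfil3 was at −0.85 and Dbp at 0.09, with an interval for Dbp that included 0. Hlf, which encodes a D-box activator like DBP, had 184, 330, 137 and 94.3, and fell with the tumor in exercised mice (log2 −1.80). Tef, the gene of the remaining activator of that family, had 2229, 2766, 3127 and 2666 and was not called in any comparison. The D-box activators were therefore not alike, since Dbp and Hlf were lowest in cancer exercise and Tef was lowest in normal control.

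Bhlhe41, a repressor of E-box genes, had 448, 923, 165 and 300. It rose with exercise in healthy mice (log2 1.04) and fell with the tumor both without (log2 −1.44) and with exercise (log2 −1.62). Ciart, another repressor of the dimer, had no read in normal control but 24 in normal exercise, against 159 with the tumor alone and 54 in cancer exercise. Against a floor of 3 reads it was at least 6.10-fold higher with exercise in healthy mice and at least 53.4-fold higher with the tumor alone. In tumor-bearing mice it was lower with exercise than without (log2 −1.52, interval −2.02 to −1.09), so the order of its libraries was that of Nr1d1, Cry2 and Per1.

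Of the genes that act on clock proteins or are driven by the clock, Nampt, the NAD salvage enzyme gene, had 1266, 1653, 3149 and 2627 and rose with the tumor alone (log2 1.31). Btrc, an F-box gene that marks PER proteins for breakdown, had 346, 450, 287 and 160 and fell with the tumor in exercised mice (log2 −1.48). Wee1, a cell cycle kinase gene under clock control, had 73.4, 111, 96.3 and 43.4, and fell both when tumor-bearing mice ran (log2 −1.13) and with the tumor in exercised mice (log2 −1.34). Bhlhe40, Csnk1d, Csnk1e, Fbxw11, Timeless and Usp2 were not called in any comparison.

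**Figure D5:**
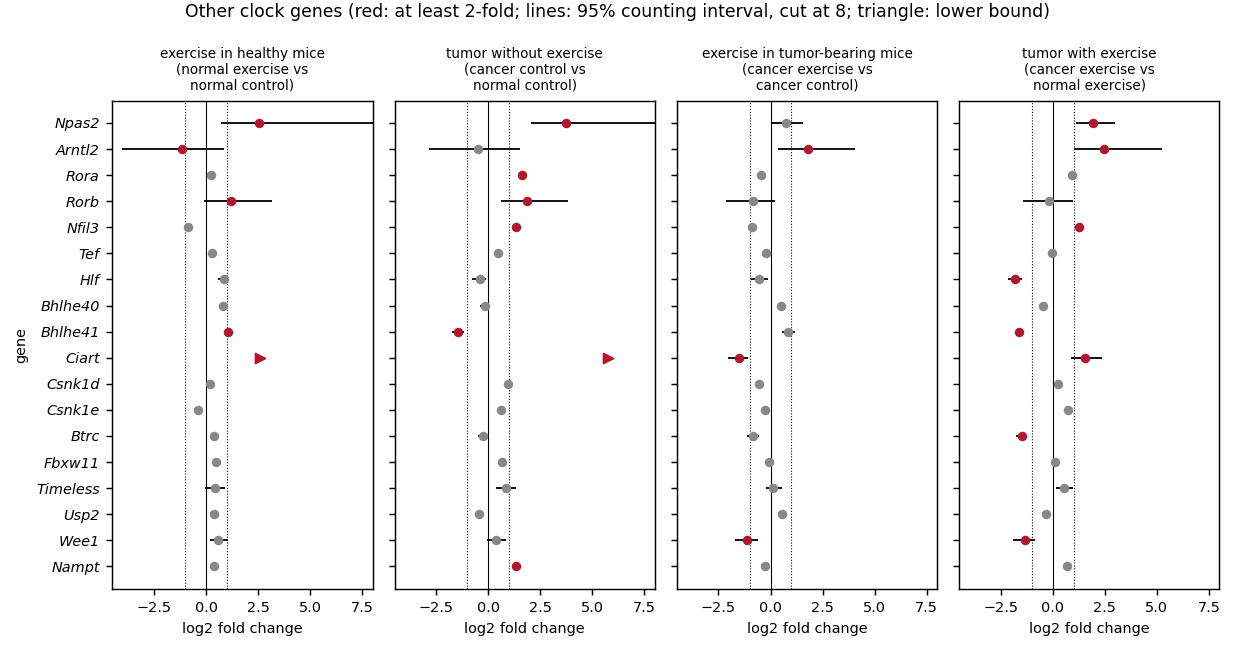
Log2 fold change (x axes) of the 18 other clock genes with reads (y axis) in the 4 comparisons, with lines for the 95% counting interval and red for genes at least 2-fold apart. Triangles mark lower bounds for Ciart, which had 0 reads in normal control. Rora, Rorb and Nfil3 lie right of the 2-fold line with the tumor alone, and Hlf, Bhlhe41, Btrc and Wee1 lie left of it with the tumor in exercised mice.

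Per1 is also known as a target of the glucocorticoid receptor, so 6 other responsive genes were read beside it. Ddit4 had 360, 380, 17486 and 7874, and its log2 fold change was 5.60 with the tumor alone and −1.15 with exercise in tumor-bearing mice. Fkbp5, which encodes a chaperone of the receptor, had 562, 289, 3501 and 3417, with 2.64 and −0.03 in these comparisons. Ddit4 thus had the order of libraries of Per1, while Fkbp5 was about as high in both tumor libraries. Klf9 (log2 1.30) and Sgk1 (1.21) also rose with the tumor alone, so that 4 of 6 rose and 0 fell, with a median of 1.26, where 20.9% of all genes rose and their median was −0.04. With the tumor in exercised mice 4 rose and 0 fell (median 1.27), where 13.9% of all genes rose with a median of −0.03, namely Fkbp5, Ddit4 (4.37), Klf9 (1.47) and Zbtb16 (1.06). With exercise in healthy mice 0 of 6 were called (median −0.30, against 21.5% of all genes called), and with exercise in tumor-bearing mice only Ddit4 was, against 30.6% of all genes, with all 6 values below 0 and a median of −0.31. The part of these signals in the level of Per1 was not tested.

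The genes nearest in profile were found for Arntl, Nr1d1 and Dbp among 7779 genes at a level of 64 or more in every library, by the Euclidean distance of log2 values centred on each gene's mean over the 4 libraries. For Nr1d1 they were Xpa (distance 0.306), Psmc4 (0.480) and Tnni1 (0.494), and 70 genes lay within 1. Tnni1, the slow-fibre troponin I gene, had 267, 777, 1519 and 775. For Dbp they were Pcx (0.0905), Angptl2 (0.136) and Leo1 (0.196), with 671 genes within 1. For Arntl they were Utp23 (0.0676), Zfp654 (0.102) and Rell1 (0.108), with 2870 genes within 1. The distance takes in the size of the differences, so such a count is larger for a gene of narrow range. Arntl spanned 2.44-fold and Nr1d1 8.86-fold, so the counts do not compare how common their shapes were. Among the members themselves the closest pairs were Clock and Cry1 (0.358) and Per2 and Nr1d2 (0.441).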

How the data were processed

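Per the methods and labels, the authors aligned the reads with Bowtie2 to mm10 (GRCm38), took read counts from Bedtools coverage and normalized them by the quantile method in edgeR. The deposited log2 values are of the normalized read count after adding 1. Whole reads were rebuilt from the steps of the deposited log2 values with a model of that normalization (fitted dispersion 0.339, 1 scaling factor per library). In each library 100% of the values gave a whole number of reads within 0.0006 log2, and from 93.8% to 95.5% were tied to a single read count. The fitted factors differed by at most 0.0117% from factors of the trimmed mean of M values (TMM). The script was tested on simulated data.

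Fold changes are differences of the deposited log2 values, which understate changes of low genes. A gene was called when it differed at least 2-fold, at a normalized level of 4 or more in 1 or both libraries. For each fold change, the 95% exact Clopper-Pearson bounds of the first library's share of the reads were expressed as log2 ratios after TMM scaling. Those of single levels are exact Poisson intervals. Reads carry no stated molecular identifiers, so these intervals and the floor of 3 reads reflect counting error and nothing else. That floor was 2.27e-05% to 2.82e-05% of a library's reads. The text names all 10 members, listed genes changed in at least 1 comparison at a level of 16 or more in it, and the 3 nearest profiles of Arntl, Nr1d1 and Dbp. Uncalled listed genes are named beyond this rule. Some listed genes are not reported here. The members and lists were chosen with earlier results of these data known. Symbols were used as deposited, 79 rows shared one with another row, and no member was among them. Other scalings, pseudocounts, minimums and folds were tried. Python 3.11.15, numpy 2.4.6, scipy 1.17.1 and pandas 2.3.3 were used.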

Additional observations from a re-analysis of the deposited data

Results flagged for a closer look

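In 4 members the effect of exercise had opposite signs in healthy and in tumor-bearing mice, with both counting intervals clear of 0. How many of all genes met this was not computed, so the count has no background. A counting interval clear of 0 was common among all genes, at 56.9% for exercise in healthy mice and 63.5% in tumor-bearing mice. The difference of the log2 fold changes, tumor-bearing minus healthy, was −3.02 for Nr1d1, −2.56 for Cry2, −1.97 for Per3 and −0.82 for Nr1d2. Each effect rests on 1 pair of libraries, and the difference was not tested against the spread between mice. The tumor effect without and with exercise uses the same 4 libraries, so the same differences apply to it. There Per3 was at log2 0.74 without and −1.23 with exercise, and Nr1d2 at 0.67 and −0.15.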

How the results depend on the processing

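The number of members called was recomputed with other scalings (total count, median of ratios, TMM), with 0 or 4 as the pseudocount, with no minimum or stricter ones (16, or 4 in both libraries), and with folds of 1.5 and 4. Of 40 such counts 35 stayed within 1.5 times the count reported. With a fold of at least 4, members called came to 0 for exercise in healthy mice, 1 for exercise in tumor-bearing mice and 1 for the tumor in exercised mice. With a fold of at least 1.5 they came to 7 for the tumor alone and 6 for exercise in tumor-bearing mice. These follow from the fold itself. The medians of the members moved by less than the median counting half-width of the members' values in all 20 cases. Total count scaling nevertheless took the median from 0.10 to 0.27 for exercise in healthy mice, and from 0.10 to −0.05, with a change of sign, for the tumor in exercised mice. Total count scaling shifted the median of all genes by 0.16 for exercise in healthy mice and by −0.16 for the tumor in exercised mice, and 3 values that were not called changed sign under it: Cry1 (0.05) in the former, and Clock (−0.08) and Nr1d1 (−0.03) in the latter. Under it Nr1d2 was at 0.68 and −0.31. No called member changed sign in any setting. No library could be left out, because each group had 1. No paired analysis was possible because the groups have 1 library each and the labels carry no replicate numbers. Genes with few reads, Npas2 and Arntl2 above all, are limited by depth.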
